A study of Mus musculus with 35 samples.

Results

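Liver CD8 T cells without surface CXCR6 were compared between mice on the diets labelled CD-HFD and ND. The comparison used 10 of the 35 samples of the series, chosen by their labels: 6 libraries of CXCR6neg cells from CD-HFD mice (replicates 1 to 6) and 4 from ND mice (replicates 2 to 5). The mice of every group were C57BL/6 and 13 months old, and both groups compared here hold hepatic CD8 T cells. The labels do not spell out the diets or state how long they were fed. As background, CD-HFD is the usual short form of a choline-deficient high-fat diet, which causes steatohepatitis in mice, and ND that of a normal diet. CXCR6 is a chemokine receptor of liver-resident lymphocytes, whose ligand CXCL16 is made by cells lining the liver sinusoids. Liver CXCR6pos cells (6 ND and 5 CD-HFD libraries) and splenic CD8 T cells labelled CX3CR1neg (5 ND and 6 CD-HFD libraries) of the same series serve below only to show where the CXCR6neg cells differ.

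The liver holds CD8 T cells of several kinds. Recirculating cells leave tissues along a gradient of sphingosine-1-phosphate, for which they carry S1P receptors under the control of the transcription factor KLF2, while resident cells lose KLF2 and these receptors. CD8 T cells that meet their antigen for a long time take up a state called exhaustion, with the inhibitory receptor PD-1 (Pdcd1) on the surface and the transcription factors TOX and BATF in the nucleus. Members of the TNF receptor family such as OX40 (Tnfrsf4) and GITR (Tnfrsf18) appear on T cells after antigen contact.

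RNA was measured by bulk sequencing of transcript 3′ ends. Total counts were 84808 to 355845 per library (median 249030) under CD-HFD and 165811 to 419019 under ND, so that 3 counts in a single library were worth 7.42 to 36.2 CPM (the count relative to the library's total, scaled by the TMM method). The column labelled ND CXCR6neg replicate 1 held the same count as an ND spleen column in all 22865 genes. Since the labels put these 2 columns in different groups, both were left out. Nothing in the labels says whether each replicate is its own animal, and the p-values below cover only the spread between these samples, which may be technical.

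The sorted fraction was checked on its own genes first. The CD8 co-receptor genes were abundant in each of the 10 libraries: Cd8b1 was at 1724 ± 91.2 CPM under CD-HFD (SD, n = 6) and 2031 ± 373 CPM under ND (SD, n = 4), and Cd8a at 879.8 ± 84.2 CPM under CD-HFD and 1122 ± 262 CPM under ND. Cd4 was at 11.1 ± 4.89 CPM under CD-HFD and 13.2 ± 10.1 under ND, and Foxp3, the factor of regulatory T cells, had 1 count in each group. Cxcr6 (chromosome 9, 123806475 to 123811760, plus strand, GRCm38) lay at 52.9 to 124 CPM (median 79.5) under CD-HFD and at 40.02, 194, 450.0 and 227 CPM in ND replicates 2 to 5. All 6 CD-HFD libraries lay below the lowest CXCR6pos library of either diet, which held 201 CPM. Under ND, replicates 4 and 5 lay within the ND CXCR6pos range of 201 to 812 CPM, so the libraries labelled ND CXCR6neg replicates 4 and 5 do not stand apart from the positive fraction on this gene. The diet difference of Cxcr6 was -1.57 ± 0.43 on the log2 scale (estimate ± SE, here and below, n = 6 against 4) and did not pass the test (edgeR adjusted p = 0.11).

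The ND libraries also varied among themselves on other genes. The granzyme gene Gzmb was at 160.1, 407, 910.0 and 1052 CPM in ND replicates 2 to 5 and at 514 to 726 CPM (median 628) under CD-HFD. The lymph-node homing receptor gene Ccr7 ran the other way, at 747, 533, 465 and 407 CPM under ND and 311 to 419 CPM (median 369.5) under CD-HFD. Per degree of freedom, the chi-square of counts between replicates was 1.53 to 2.76 over the 6 ND pairs and 1.18 to 1.98 over the 15 CD-HFD pairs, ranges that overlap. CD-HFD replicate 5, the shallowest library, and ND replicate 2 stood apart from the rest on the first 2 principal components, which held 26.3% and 13.8% of the variance.

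**Figure D1:**
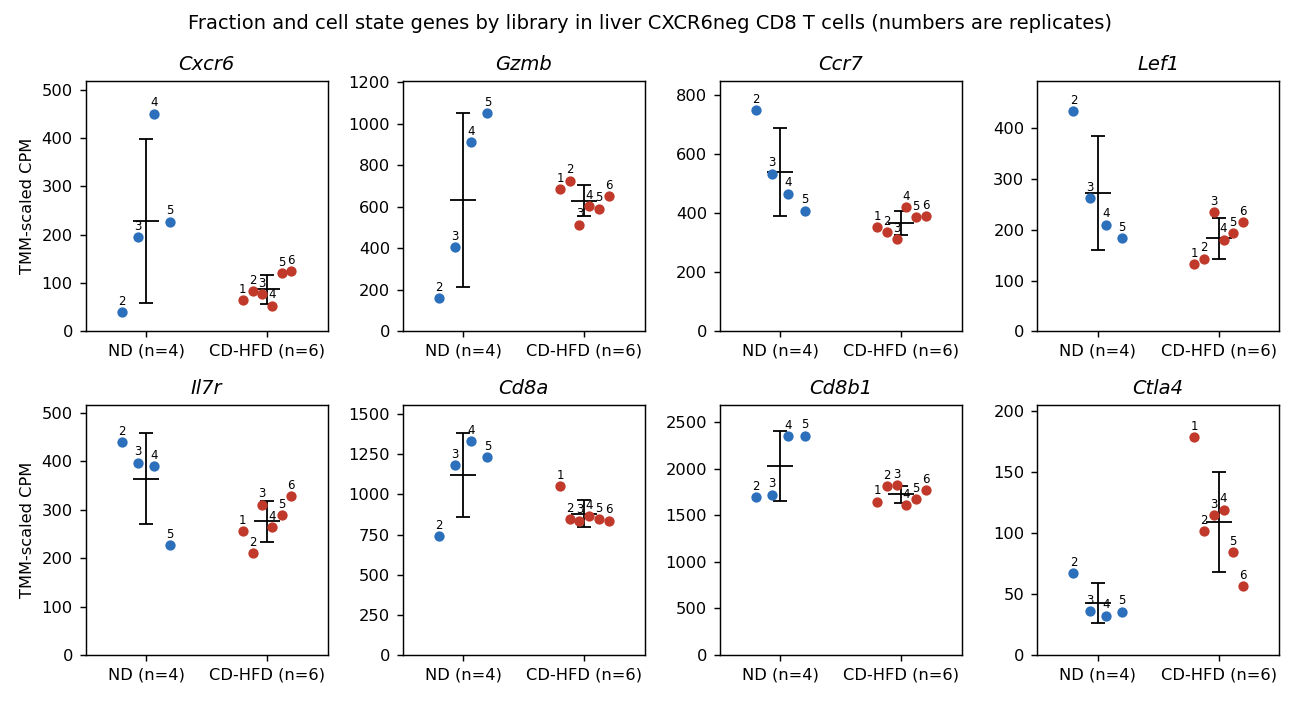
Level in TMM-scaled CPM (vertical axis) of 8 genes in each liver CXCR6neg library, by diet; each point is 1 library with its replicate number, and the bars are the group mean and SD. Gzmb and Cxcr6 spread widely over the 4 ND libraries, Gzmb from 160.1 to 1052 CPM, while the 6 CD-HFD libraries lay between 514 and 726 CPM.

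Under CD-HFD, 18 genes rose in CXCR6neg cells and 11 fell. Those that rose include Pdcd1, Tox, Batf, Rgs16 and Ikzf2, which are 5 of the 20 genes tested in a list of inhibitory receptors and exhaustion genes, and, outside that list, Tnfrsf4, Tnfrsf18 and Maf. Those that fell include Tnf, S1pr5, Klf2 and Jun. Without ND replicate 4, 8 genes were called in all and 3 of that list. The genes that rose did so by 1.43 to 16.7-fold and those that fell by 1.37 to 8.99-fold. Of 6174 genes tested with edgeR's quasi-likelihood test, 29 (0.47%) were called at a Benjamini-Hochberg adjusted p under 0.05, 0.292% as higher and 0.178% as lower, and 524 (8.49%) had an unadjusted p under 0.05. The median log2 fold change of all genes was -0.01. The libraries of the 2 diets did not overlap for 20 of the 29 called genes (13 higher and 7 lower), against 117 (1.9%) of all genes tested. Because RNA was measured in bulk, fewer cells of a type and less RNA per cell cannot be told apart here.

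**Figure D2:**
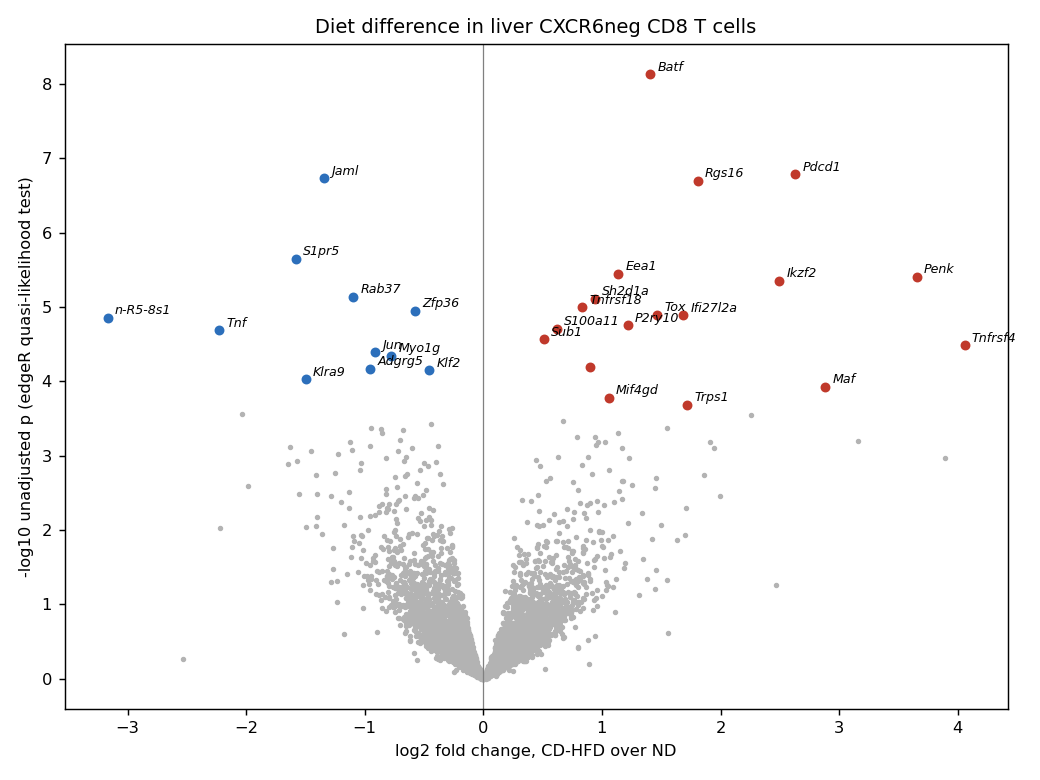
Log2 fold change of CD-HFD over ND (horizontal axis) against the -log10 of the unadjusted p of edgeR (vertical axis) for the 6174 genes tested in liver CXCR6neg cells; red points are the 18 genes called higher, blue points the 11 called lower, and 28 of the 29 are labelled. Batf has the smallest p and Tnfrsf4 the largest fold change.

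The list of inhibitory receptors and exhaustion genes held 5 called genes of 20 tested (24 in the list), each of them higher. Its median log2 fold change was 0.58 where that of all genes was -0.01. The list median was 1.67 in the diet comparison of liver CXCR6pos cells and 0.40 in that of spleen CX3CR1neg cells. Like the other lists, it was chosen with earlier results of these data known. Pdcd1 (chromosome 1, 94038305 to 94052553, minus strand) encodes PD-1, the receptor that dampens T cell receptor signals. It was at 6.67, 22.6, 19.8 and 28.3 CPM in ND replicates 2 to 5 and at 82.8 to 157 CPM (median 148) in the 6 CD-HFD libraries. The groups did not overlap, and the lowest CD-HFD library, replicate 6, held 82.8 CPM against 28.3 in the highest ND library. The difference was 2.63 ± 0.40 (6.19-fold, adjusted p = 0.000312 by edgeR).

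Batf (chromosome 12, 85686669 to 85709087, plus strand) encodes an AP-1 family factor that pairs with JUN proteins and IRF4 in activated T cells. Its levels were 66.7, 113, 64.3 and 67.3 CPM under ND and 148 to 256 CPM (median 207) under CD-HFD. ND replicate 3 was the highest of its group, and still below every CD-HFD library. The difference of 1.41 ± 0.22 (2.65-fold) had the smallest adjusted p of all genes, 4.56e-05 by edgeR. Rgs16 (chromosome 1, 153740349 to 153745468, plus strand), which shortens signals from G protein-coupled receptors and is induced in activated T cells, was nearly level over the ND libraries at 26.7, 22.6, 27.2 and 28.3 CPM. It reached 60.2 to 146 CPM (median 89.1) under CD-HFD, a difference of 1.81 ± 0.33 (adjusted p = 0.000312 by edgeR) without overlap.

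Tox (chromosome 4, 6686353 to 6991557, minus strand), a factor that establishes the chromatin of exhausted T cells, was at 140.1, 54.2, 69.2 and 42.5 CPM under ND and 127 to 277 CPM (median 200.3) under CD-HFD. Here the groups overlapped, since ND replicate 2 lay above CD-HFD replicates 1 and 3. The difference was 1.46 ± 0.29 (adjusted p = 0.00571 by edgeR), and 4 of 6 CD-HFD libraries exceeded every ND library. Ikzf2 (chromosome 1, 69531214 to 69687245, minus strand) encodes HELIOS, a zinc-finger factor found in regulatory T cells and in some chronically stimulated CD8 T cells. It had 26.7, 9.03, 7.42 and 0 CPM under ND and 24.1 to 80.8 CPM (median 46.8) under CD-HFD, a difference of 2.50 ± 0.51 (adjusted p = 0.00347 by edgeR), with ND replicate 2 again within the CD-HFD range.

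Of the 20 genes tested in the list, 15 had a positive and 5 a negative estimate. At an unadjusted p under 0.05 by edgeR, 9 were higher and 2 lower. Cd160 of the list was called lower without ND replicate 2, and with replicate number added to a fit of the 2 groups alone. The receptor genes Ctla4, Havcr2, Tigit and Lag3 of the same list, chosen after their values were seen, had positive estimates that did not pass the test. Ctla4, which competes for the ligands of CD28, was at 109 ± 41.0 CPM under CD-HFD and 42.6 ± 16.2 CPM under ND (1.46 ± 0.43, adjusted p = 0.141 by edgeR). Havcr2, the gene of TIM-3, was at 38.8 ± 28.2 CPM under CD-HFD and 11.7 ± 5.48 CPM under ND (adjusted p = 0.0871 by edgeR). Tigit was at 60.9 ± 27.1 CPM under CD-HFD and 24.1 ± 13.4 CPM under ND and Lag3 at 24.1 ± 9.08 CPM under CD-HFD and 12.3 ± 8.03 CPM under ND, with adjusted p of 0.316 and 0.595 by edgeR. In each of these 4 genes the groups overlapped. Other fits with edgeR called some of them higher. The adjusted p of Ctla4 by edgeR was 0.000731 with the 2 groups fitted alone and 0.00202 with replicate number added to that fit. It was 0.000166 with no filter on low counts and 0.0369 with the column shared with the spleen kept as ND replicate 1. Havcr2 was called with that column kept, with no filter and without CD-HFD replicate 5. Tigit was called with no filter and with the 2 groups alone.

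ND replicate 4 has both the highest Cxcr6 and the largest total count (419019) of its group. Without it, 3 genes of the list remained called (Batf, Pdcd1 and Rgs16), and the adjusted p of edgeR was 0.0591 for Ikzf2 and 0.0706 for Tox. The log2 estimates were then 2.39 for Ikzf2 and 1.46 for Tox, against 2.50 and 1.46 with all libraries. Without ND replicate 5, the call for Tox was lost as well (adjusted p = 0.0519). Tcf7, the factor of stem-like T cells, was at 286 ± 44.5 CPM under CD-HFD and 309 ± 67.3 CPM under ND and did not pass the test (-0.11 ± 0.15, adjusted p = 0.925 by edgeR). Over the list of naive and stem-like genes, 0 of 17 tested were called by edgeR (1 higher and 2 lower at an unadjusted p under 0.05), with a median of -0.11. With the 2 groups fitted alone, 2 of 16 tested (Ccr7 and Dapl1) were called lower. Dapl1 was also called lower with replicate number added to that fit.

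**Figure D3:**
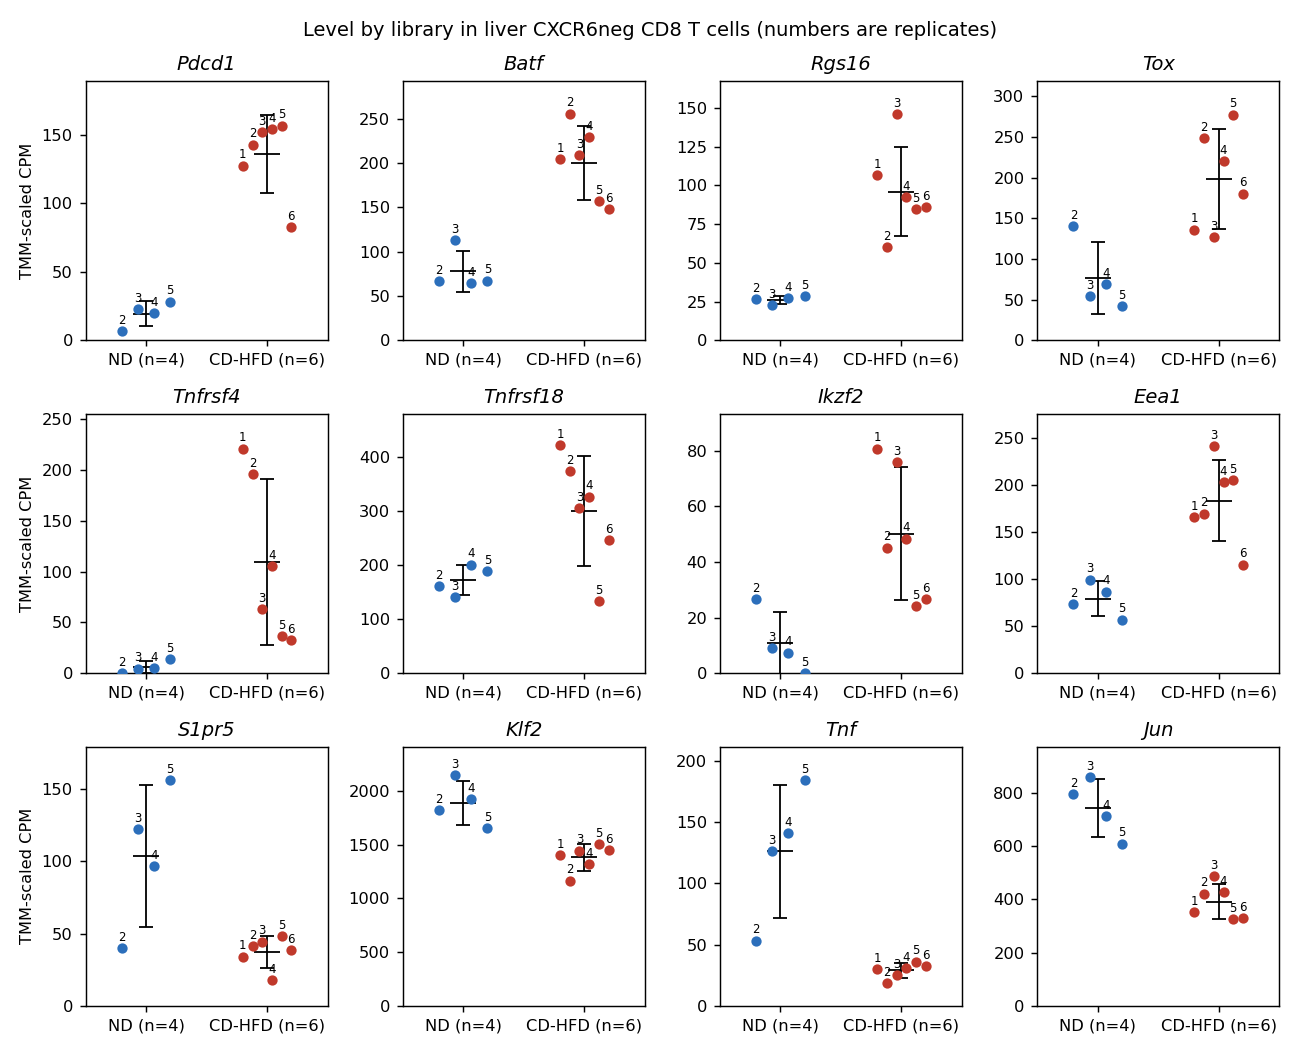
Level in TMM-scaled CPM (vertical axis) of 12 called genes in each liver CXCR6neg library, by diet; each point is 1 library with its replicate number, and the bars are the group mean and SD. Pdcd1, Batf, Rgs16, Tnfrsf4, Eea1, Klf2, Tnf and Jun show no overlap between diets, while Tox, Ikzf2, Tnfrsf18 and S1pr5 have at least 1 library within the range of the other diet.

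A pair of neighbouring genes of co-stimulatory TNF receptors on chromosome 4 rose. Tnfrsf4 (156013843 to 156016612, plus strand), which encodes OX40, had 0, 4.52, 4.95 and 14.2 CPM under ND, or 7 counts over the 4 libraries, and 32.5 to 221 CPM (median 84.6) under CD-HFD, or 152 counts. The CD-HFD libraries varied widely around their mean, with replicates 1 and 2 at 221 and 196 CPM and replicates 5 and 6 at 36.2 and 32.5, yet none overlapped with ND. The fitted difference was 4.06 ± 0.81 (adjusted p = 0.0101 by edgeR), with the ND level resting on those 7 counts. Tnfrsf18 (156026164 to 156028895, plus strand), which encodes GITR, was at 160.1, 140.0, 200.3 and 188 CPM under ND and 133 to 421 CPM (median 315) under CD-HFD. Of the 6 CD-HFD libraries, 5 lay above every ND library, and the shallowest, replicate 5, lay below all 4. The difference was 0.83 ± 0.17 (adjusted p = 0.00565 by edgeR).

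Both genes, and Ikzf2, are also known from regulatory T cells. Of the 8 marker genes of CD4 and regulatory T cells, 4 were tested and 2 were higher (Tnfrsf4 and Ikzf2), and the summed level of the list was 154 to 595 CPM (median 322) under CD-HFD and 84.1 to 133 (median 117) under ND. Cd4 lay at 4.41 to 17.0 CPM under CD-HFD and 4.95 to 27.1 under ND. Foxp3 had 1 count in each group, and Zbtb7b had 4 in each. Cd40lg, the CD40 ligand of helper T cells, had 6 counts under CD-HFD and 13 under ND. Ctla4, given above, and Izumo1r had higher means under CD-HFD. Izumo1r was at 45.3 ± 25.4 CPM under CD-HFD and 24.6 ± 3.36 CPM under ND. The part of CD4 and regulatory T cells in the diet difference was not tested.

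Penk (chromosome 4, 4133531 to 4138819, minus strand), the gene of the opioid precursor proenkephalin, which activated T cells can express, was at 13.3, 13.6, 2.47 and 14.2 CPM under ND and 50.2 to 192 CPM (median 109) under CD-HFD. The groups did not overlap, and the difference was 3.66 ± 0.63 (adjusted p = 0.00347 by edgeR). Maf (chromosome 8, 115682942 to 115707794, minus strand), which encodes the factor c-MAF that drives interleukin 10 and some inhibitory receptors, was at 20.01, 18.1, 4.95 and 10.6 CPM under ND and 48.3 to 114 CPM (median 93.0) under CD-HFD, also without overlap (2.88 ± 0.64, adjusted p = 0.0273 by edgeR). Trps1 (chromosome 15, 50654752 to 50890463, minus strand), a GATA-type repressor, was at 20.01, 13.6, 12.4 and 7.08 CPM under ND and 38.1 to 48.3 CPM (median 40.5) under CD-HFD (1.72 ± 0.45, adjusted p = 0.0441 by edgeR). Sh2d1a (chromosome X, 42502453 to 42529330, plus strand), whose product SAP carries signals of SLAM family receptors, was at 207, 244, 143 and 117 CPM under ND and 269 to 373 CPM (median 336) under CD-HFD, without overlap (0.94 ± 0.19, adjusted p = 0.00478 by edgeR).

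The calls of these genes leaned on single libraries to different degrees. Leaving out ND replicate 4 raised the adjusted p of edgeR to 0.0591 for Penk and 0.0806 for Sh2d1a. Tnfrsf4 lost its call without ND replicate 3 or 4 (adjusted p 0.05 to 0.0848), Maf without ND replicate 3, 4 or 5 or CD-HFD replicate 1, 2, 3 or 4 (adjusted p 0.0517 to 0.196) and Trps1 without ND replicate 3, 4 or 5 or CD-HFD replicate 1, 2, 4, 5 or 6 (adjusted p 0.061 to 0.208). Maf thus kept its call without 3 of the 10 libraries (ND replicate 2 and CD-HFD replicates 5 and 6), and Trps1 without 2 of them (ND replicate 2 and CD-HFD replicate 3). Tnfrsf18 kept its call without each library in turn, with a largest adjusted p of 0.0463. With limma-voom, Penk and Maf (adjusted p = 0.113 for each), Tnfrsf4 (adjusted p = 0.327) and Trps1 (adjusted p = 0.0889) lost their calls. Trps1 was also lost with DESeq2 (adjusted p = 0.0883), with no filter on low counts (adjusted p = 0.0673 by edgeR) and with a filter of 40 CPM in at least 4 libraries (adjusted p = 0.0533 by edgeR). With the 2 groups fitted alone, Tnfrsf4 was not called (adjusted p = 0.122 by edgeR) and Trps1 did not pass the filter on low counts.

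The chemokine gene Ccl5 was among the most abundant transcripts, at 25689.8 ± 1302 CPM under CD-HFD and 20496 ± 1538 CPM under ND, with no overlap but an adjusted p of 0.211 by edgeR. P2ry10 (chromosome X, 107088492 to 107104974, plus strand), a receptor for lysophosphatidylserine and other lysophospholipids that was placed in the list of extracellular ATP, adenosine and acetate genes, was at 66.7, 40.7, 59.3 and 35.4 CPM under ND and 88.7 to 157 CPM (median 124) under CD-HFD (1.22 ± 0.27, adjusted p = 0.00682 by edgeR). It was the 1 called gene of 10 tested in that list, and the ATP receptor gene P2rx7 was at 10.9 ± 12.8 CPM under CD-HFD and 18.4 ± 18.5 CPM under ND (adjusted p = 0.587 by edgeR), a level of few counts per library. The call for P2ry10 was lost without ND replicate 5 (adjusted p = 0.0886).

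Other genes that rose have roles in trafficking, transcription and translation. Eea1 (chromosome 10, 95940650 to 96045518, plus strand), an early endosome tether, was at 73.4, 99.4, 86.5 and 56.7 CPM under ND and 115 to 241 CPM (median 186) under CD-HFD, without overlap (1.14 ± 0.23, adjusted p = 0.00347 by edgeR). S100a11 (chromosome 3, 93520488 to 93526287, plus strand), a calcium-binding protein, was at 407, 434, 435 and 372 CPM under ND and 527 to 702 CPM (median 645) under CD-HFD, and Sub1 (chromosome 15, 11981339 to 11996983, minus strand), a transcription co-activator, at 1014, 768, 759 and 850.2 CPM and 1074 to 1389 CPM (median 1145). Both differences were small and without overlap, at 0.62 ± 0.14 and 0.51 ± 0.12 (adjusted p = 0.00703 and 0.00887 by edgeR). These 2 genes and Tnfrsf18 lie outside the rule of the 15 largest changes and were named after their values were seen. Mif4gd (chromosome 11, 115607918 to 115612969, minus strand), a translation initiation scaffold-like protein, overlapped between diets, at 93.4, 36.1, 64.3 and 35.4 CPM and 80.8 to 157 CPM (median 115) (1.06 ± 0.27, adjusted p = 0.0365 by edgeR). The call for Mif4gd was lost without ND replicate 3, 4 or 5 or CD-HFD replicate 2, 5 or 6 (adjusted p 0.074 to 0.231), and with the column shared with the spleen kept as ND replicate 1 (adjusted p = 0.159). S100a11 lost its call without ND replicate 4 or 5 (adjusted p 0.0526 to 0.0746), and Sub1 without ND replicate 3 or 4 or CD-HFD replicate 2 (adjusted p 0.0593 to 0.0852).

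Among interferon-response genes, Ifi27l2a (chromosome 12, 103442167 to 103443680, minus strand), a small mitochondrial protein gene induced by type I interferon, was the only 1 called of 32 tested. It was at 200.1, 189.7, 98.9 and 124 CPM under ND and 364 to 625 CPM (median 411) under CD-HFD, without overlap (1.69 ± 0.32, adjusted p = 0.00571 by edgeR). The median of the list was 0.02, and 18 of the 32 genes had a positive and 14 a negative estimate. Without ND replicate 4 the adjusted p of Ifi27l2a was 0.0744 by edgeR.

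Since BATF and JUN proteins bind the AP-1 motif, and Batf rose while Jun fell, promoters of the called genes were searched for TGANTCA, a motif that reads the same on both strands. Windows of 250 bases before to 50 after the RefSeq gene start (GRCm38.p6) were at hand for 10 of the 18 higher and 9 of the 11 lower genes. The motif stood in 2 of the 10 (P2ry10 and S100a11) and in 0 of the 9, against 277 of 4577 (6.05%) of the genes tested that have a window and 2565 of 32851 (7.81%) of all windows. P2ry10 has another RefSeq window, without the motif, and a gene was counted where any of its windows held it. The 2 windows that hold it are shown as examples of a single and a double match, with the motif in capitals. The first is chrX:107088242-107088541 and the second chr3:93520246-93520545, both on the plus strand.
P2ry10: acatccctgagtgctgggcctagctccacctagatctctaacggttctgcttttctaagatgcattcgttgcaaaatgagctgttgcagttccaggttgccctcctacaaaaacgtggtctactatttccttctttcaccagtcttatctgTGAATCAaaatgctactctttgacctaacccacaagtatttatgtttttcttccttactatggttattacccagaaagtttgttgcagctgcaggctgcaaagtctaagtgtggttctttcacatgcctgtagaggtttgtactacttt
S100a11: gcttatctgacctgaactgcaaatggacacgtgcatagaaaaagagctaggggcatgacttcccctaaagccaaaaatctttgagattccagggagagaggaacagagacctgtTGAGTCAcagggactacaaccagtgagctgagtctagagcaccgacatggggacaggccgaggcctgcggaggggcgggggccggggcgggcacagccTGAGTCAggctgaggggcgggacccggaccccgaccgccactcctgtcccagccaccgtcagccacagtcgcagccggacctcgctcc
The match in P2ry10 starts 99 bases before the gene start, and those in S100a11 start 136 and 38 bases before it. A match describes the letters in this window and says nothing of binding.

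Genes of tissue egress and recirculation held 2 called genes of 19 tested, each lower, with a median of -0.17 over the list. S1pr5 (chromosome 9, 21242912 to 21248443, minus strand), an S1P receptor of effector T cells and NK cells, was at 40.02, 122, 96.4 and 156 CPM in ND replicates 2 to 5 and 17.6 to 48.3 CPM (median 39.9) under CD-HFD. ND replicate 2 lay among the CD-HFD libraries, and the other 3 ND libraries lay above all of them. The difference was -1.58 ± 0.31 (2.99-fold lower, adjusted p = 0.00281 by edgeR), and the call held without each library in turn. Klf2 (chromosome 8, 72319033 to 72321656, plus strand), the factor that maintains S1P receptors and CD62L in recirculating T cells, was at 1821, 2146, 1924 and 1654 CPM under ND and 1167 to 1508 CPM (median 1425) under CD-HFD. The libraries did not overlap, and the difference was -0.45 ± 0.11 (1.37-fold lower, adjusted p = 0.0177 by edgeR). The call for Klf2 was lost without ND replicate 3 or 4 or CD-HFD replicate 2 or 4 (adjusted p 0.0537 to 0.17). Cx3cr1, the receptor for fractalkine on circulating effector cells, was at 46.7, 81.3, 129 and 159 CPM under ND and 47.3 to 76.5 CPM (median 56.2) under CD-HFD, and Ly6c2, a surface protein of memory T cells, at 2428, 2407, 2854 and 2501 CPM and 1674 to 2199 CPM (median 1983). The adjusted p of edgeR was 0.0915 for both genes, although the libraries did not overlap for Ly6c2.

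Tnf (chromosome 17, 35199381 to 35202007, minus strand), the gene of the cytokine TNF, was at 53.4, 126, 141 and 184 CPM under ND and 18.8 to 36.2 CPM (median 30.3) under CD-HFD. The groups did not overlap, the CD-HFD libraries were close to each other, and the difference was -2.23 ± 0.44 (4.69-fold lower, adjusted p = 0.00703 by edgeR). Tnf was the only called gene of 20 in the cytotoxic list, whose median was 0.02 (10 positive and 10 negative estimates). Ifng, the gene of interferon gamma, was at 107, 199, 255 and 205 CPM under ND and 84.5 to 132 CPM (median 105) under CD-HFD, and did not pass the test (-0.95 ± 0.25, adjusted p = 0.0745 by edgeR). Gzmk, the granzyme of memory-like effector cells, had an estimate of the other sign, at 347, 217, 195 and 113 CPM and 365 to 543 CPM (median 459) (1.14 ± 0.35, adjusted p = 0.182 by edgeR). Fasl, the ligand of the death receptor FAS, was at 259.9 ± 37.2 CPM under CD-HFD and 234 ± 58.0 CPM under ND (adjusted p = 0.969 by edgeR). Without ND replicate 4 or 5, the adjusted p of Tnf was 0.0591 and 0.0688.

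Jun (chromosome 4, 95049034 to 95052222, minus strand), the AP-1 factor, and Zfp36 (chromosome 7, 28376784 to 28380253, minus strand), whose product tristetraprolin destabilises cytokine messengers such as that of Tnf, were the called genes among 19 immediate-early genes tested (0 higher, 2 lower, median -0.21). Jun was at 794, 858, 712 and 609 CPM under ND and 326 to 488 CPM (median 387) under CD-HFD, without overlap (-0.91 ± 0.19, adjusted p = 0.012 by edgeR). Zfp36 was at 467, 497, 546 and 489 CPM and 292 to 388 CPM (median 333), also without overlap (-0.57 ± 0.13, adjusted p = 0.00571 by edgeR). Fos, the partner of JUN, had 660.3, 714, 628 and 528 CPM and 307 to 498 CPM (median 378), without overlap, and an adjusted p of 0.0766 by edgeR. It was called lower by edgeR with the 2 groups fitted alone (adjusted p = 0.000734) and with no filter on low counts (adjusted p = 0.000778). Limma-voom also called it (adjusted p = 0.038), while DESeq2 did not (adjusted p = 0.086). Immediate-early genes took 1.34 to 1.47% of all counts in the ND libraries and 1.13 to 1.33% in the CD-HFD libraries. With the column shared with the spleen kept as ND replicate 1, 0 genes of the list were called by edgeR and its median was 0.10, and the adjusted p was 0.768 for Jun, 0.749 for Zfp36, 0.605 for Klf2 and 0.150 for Tnf. The call for Jun was also lost without ND replicate 3 or 4 or CD-HFD replicate 6 (adjusted p 0.0514 to 0.0708), and that for Zfp36 without ND replicate 4 (adjusted p = 0.0744).

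Klra9, Jaml and Adgrg5, receptors and adhesion molecules of lymphocytes, also fell. Klra9 (chromosome 6, 130178675 to 130193112, minus strand), a Ly49 receptor for MHC class I, was at 20.01, 67.8, 71.7 and 74.4 CPM under ND and 0 to 36.2 CPM (median 22.6) under CD-HFD (-1.50 ± 0.37, adjusted p = 0.0224 by edgeR). ND replicate 2 lay with the CD-HFD libraries, and the Klra genes are near copies whose 3′ counts may be split. The call was lost without ND replicate 3, 4 or 5 or CD-HFD replicate 1, 2 or 3 (adjusted p 0.0708 to 0.18), and with the column shared with the spleen kept as ND replicate 1 (adjusted p = 0.192). It was the 1 called gene of 13 killer lectin-like receptors, whose median was -0.44. Jaml (chromosome 9, 45079183 to 45108534, plus strand), a junctional adhesion molecule of leukocytes, was at 73.4, 81.3, 168 and 131 CPM under ND and 26.4 to 62.1 CPM (median 53.0) under CD-HFD, without overlap (-1.34 ± 0.24, adjusted p = 0.000312 by edgeR). Adgrg5 (chromosome 8, 94923694 to 94943280, plus strand), an adhesion G protein-coupled receptor, was at 40.02, 90.3, 161 and 145 CPM and 38.3 to 96.5 CPM (median 59.4) with overlap (-0.95 ± 0.23, adjusted p = 0.0175 by edgeR).

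Myo1g (chromosome 11, 6506548 to 6520965, minus strand), a myosin of lymphocyte membranes, was at 147, 262, 195 and 156 CPM under ND and 92.5 to 128 CPM (median 114) under CD-HFD. Rab37 (chromosome 11, 115091431 to 115162236, plus strand), a GTPase of secretory vesicles, was at 113, 99.4, 153 and 124 CPM under ND and 38.3 to 96.5 CPM (median 60.6) under CD-HFD. Neither gene overlapped between diets, and the differences were -0.78 ± 0.18 and -1.10 ± 0.23 (adjusted p = 0.0127 and 0.00478 by edgeR). The gene with the lowest estimate, n-R5-8s1, is a copy of 5.8S ribosomal RNA, which has no poly(A) tail, and was at 6.67, 94.9, 94.0 and 14.2 CPM under ND and 0 to 12.1 CPM (median 5.16) under CD-HFD (-3.17 ± 0.63, adjusted p = 0.00571 by edgeR). ND replicates 3 and 4 held most of it. Adgrg5 lost its call without ND replicate 4 or 5 or CD-HFD replicate 1 or 2 (adjusted p 0.092 to 0.415), and Myo1g without ND replicate 3 or 4 or CD-HFD replicate 4 or 6 (adjusted p 0.0537 to 0.207). Without ND replicate 4 the adjusted p was 0.0744 for Jaml, 0.128 for Rab37 and 0.0744 for n-R5-8s1.

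Of the 29 genes, 26 were also called with DESeq2 and 19 with limma-voom. Beside Trps1, DESeq2 did not call Klra9 and Mif4gd (adjusted p = 0.098 and 0.0543). Limma-voom did not call these either, nor, of the lower genes, Adgrg5, Myo1g and n-R5-8s1 (adjusted p = 0.138, 0.054 and 0.314). With the 2 groups fitted alone, Adgrg5 was not called (adjusted p = 0.0684 by edgeR), and Klra9 and n-R5-8s1 did not pass the filter on low counts. Over all 29 genes, 22 lost their call without ND replicate 4, where 8 genes were called by edgeR in all. Without ND replicate 5, 19 genes were called, each of them among the 29. Leaving out ND replicate 2 gave 45 called genes, among them all 29, and Cxcr6 was then called too (adjusted p = 0.0181). The genes called without each of the 10 libraries in turn were 6: Batf, Eea1, Pdcd1, Rgs16, S1pr5 and Tnfrsf18. The same 6 were called under every alternative setting of the analysis. Every one of the 29 kept its direction without each library in turn.

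**Figure D4:**
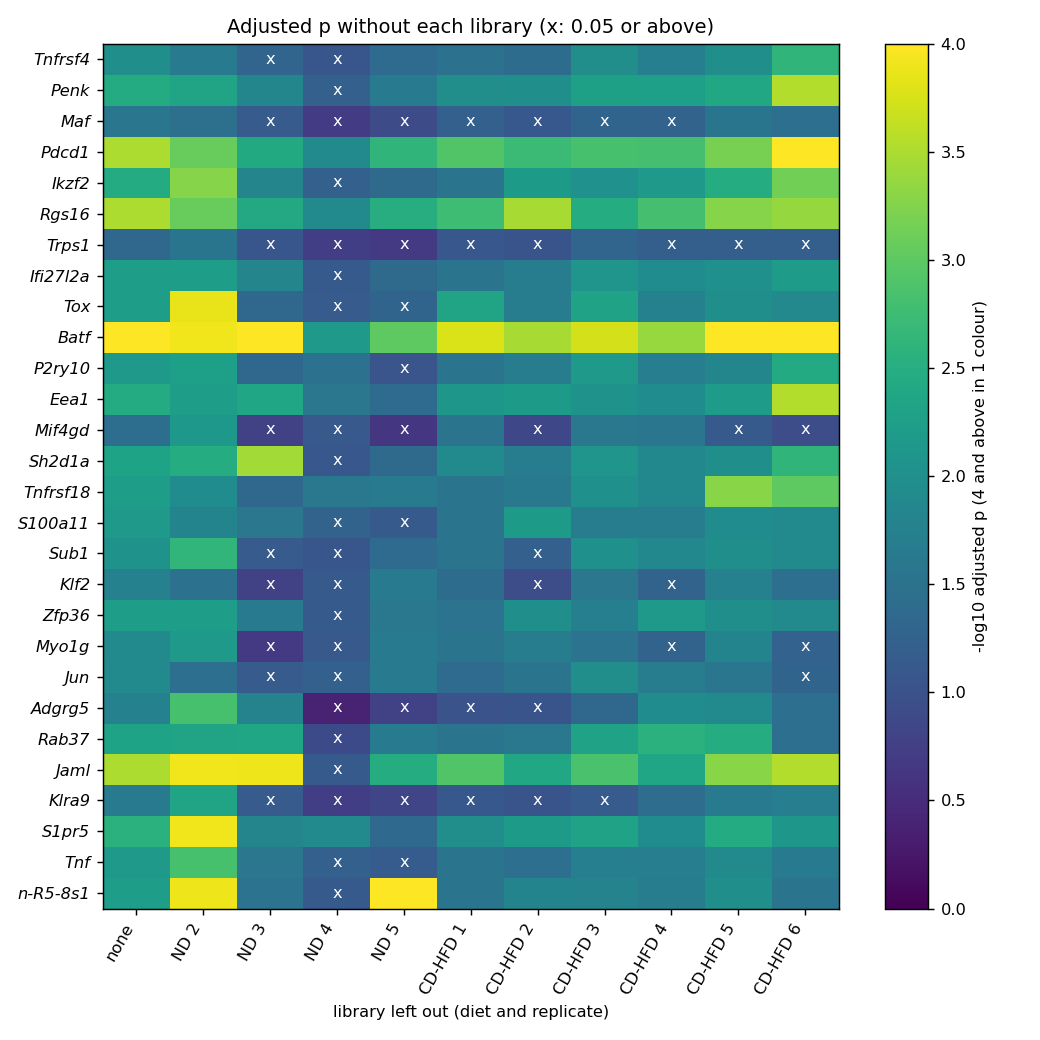
Colour shows the -log10 of the adjusted p of edgeR for 28 of the 29 called genes (rows) in the full comparison (none) and without each of the 10 libraries in turn (columns); crosses mark an adjusted p of 0.05 or above. The column without ND replicate 4 has the most crosses, and the rows of Batf, Eea1, Pdcd1, Rgs16, S1pr5 and Tnfrsf18 have none.

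Klf2 was also the 1 called gene of 15 FOXO1 targets tested, and Tnf that of 16 NF-kB and TNF response genes. The gene groups that follow held no called gene. Of 22 fatty acid, lipid droplet and cholesterol genes tested, 0 were called by edgeR (2 higher and 0 lower at an unadjusted p under 0.05) and the median was -0.12. The lipid droplet coat gene Plin2 was at 0, 0, 14.8 and 0 CPM under ND and 20.7 to 44.4 CPM (median 26.4) under CD-HFD, without overlap (2.26 ± 0.60, adjusted p = 0.0571 by edgeR). Cpt1a, which brings fatty acids into mitochondria, was at 37.4 ± 15.8 CPM under CD-HFD and 17.2 ± 8.47 CPM under ND (adjusted p = 0.3 by edgeR). Glycolysis (13 tested, median -0.02), proliferation (14 tested, median 0.13), MHC class I and peptide loading (24 tested, median 0.03), IL-2 and IL-15 signalling (13 tested, median -0.02) and T cell identity (20 tested, median -0.00) had 0 called genes each by edgeR, and 1, 1, 0, 3 and 5 genes at an unadjusted p under 0.05. Of the 79 ribosomal protein genes tested, 73 had a negative estimate, and 0 were called (7 at an unadjusted p under 0.05). Their median was -0.13, where that of all genes was -0.01. The list median was -0.29 in the diet comparison of liver CXCR6pos cells and -0.04 in that of spleen CX3CR1neg cells.

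Markers of other cells were read beside these results. The summed markers of plasmacytoid dendritic cells were 1181 to 1834 CPM under CD-HFD and 759 to 1527 under ND, and the defining gene Siglech was at 179 ± 42.3 CPM under CD-HFD and 144 ± 58.7 CPM under ND. Summed markers of hepatocytes were 12.8 to 109 CPM under CD-HFD and 86.7 to 131 under ND, with 1 and 11 counts of albumin (Alb). Apoe, a gene of hepatocytes and macrophages, was at 12.6 ± 7.51 CPM under CD-HFD and 51.7 ± 24.5 CPM under ND (-2.03 ± 0.51, adjusted p = 0.0562 by edgeR). The macrophage genes C1qa, Timd4 and Csf1r and the neutrophil genes S100a8, S100a9, Ly6g, Csf3r, Cxcr2 and Retnlg had no count in any of the 10 libraries, as did Ncr1 and Kit of innate lymphocytes and Cd79a of B cells, which allows up to 3 counts (7.42 to 36.2 CPM) in a library. Other members of the macrophage, innate lymphocyte and B cell lists were present, and 0 were called by edgeR. Mean levels were 609 CPM under CD-HFD and 532 under ND for Cd74 (B cells). Tyrobp (innate lymphocytes) was at 366 and 278, and Cd68 (macrophages) at 58.0 and 36.4. Klre1 (innate lymphocytes) ran the other way, at 83.3 and 121. The summed lists overlapped between diets for macrophages, at 162 to 239 CPM under CD-HFD and 147 to 209 under ND. The same held for innate lymphocytes (948 to 1159 and 873 to 1098 CPM) and erythroid cells (1731 to 9154 and 3902 to 9018 CPM). B cells overlapped too, at 1793 to 1978 CPM under CD-HFD and 1152 to 2281 under ND. The neutrophil and monocyte list did not (1696 to 2292 and 2444 to 2923 CPM). Ly6c2 of memory T cells made up nearly all of its sum. The part of the plasmacytoid and hepatocyte RNA in the diet difference was not tested.

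The diet difference of CXCR6neg cells was then set beside that of the other fractions, which come from other libraries. Total counts of the CXCR6pos libraries were 15633 to 494700 under ND and 57168 to 369055 under CD-HFD. In the shallowest of each diet, 3 counts were worth 148 CPM (ND replicate 1) and 53.1 CPM (CD-HFD replicate 5). In liver CXCR6pos cells, 697 genes (11.3%) passed the test, 4.84% of the genes tested as higher and 6.45% as lower, and 25 of the 29 genes called in CXCR6neg cells were among them (17 of the 18 higher and 8 of the 11 lower). That is 86.2% of the CXCR6neg calls and 3.59% of the CXCR6pos calls. The estimates of 28 of the 29 genes had the same sign in both fractions, n-R5-8s1 being the other one (0.45 ± 0.84 in CXCR6pos). Pdcd1 differed by 3.38 ± 0.25 in CXCR6pos and by 2.63 ± 0.40 in CXCR6neg cells, Tnfrsf4 by 3.59 ± 0.69 and 4.06 ± 0.81, and S1pr5 by -3.40 ± 0.45 and -1.58 ± 0.31. The labels do not say whether the fractions come from the same mice.

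The test of the difference between the 2 diet effects called 89 of 6174 genes (1.44%), 62 (1%) with a higher and 27 (0.437%) with a lower value in CXCR6neg cells, and 3 of these are among the 29 genes. Klf2 fell by 1.45 on the log2 scale in CXCR6pos and by 0.45 in CXCR6neg cells (adjusted p of the difference = 1.05e-05 by edgeR). Adgrg5 fell by 3.08 in CXCR6pos and fell by 0.95 in CXCR6neg cells (adjusted p = 0.000294 by edgeR), and Klra9 fell by 4.18 in CXCR6pos and fell by 1.50 in CXCR6neg cells (adjusted p = 0.0251 by edgeR). The other 26 were not shown to differ between fractions. P2ry10 had an estimate of 0.06 ± 0.25 in CXCR6pos cells against 1.22 ± 0.27 in CXCR6neg cells, with an adjusted p of 0.0966 by edgeR for the difference.

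Memory and recirculation genes were among those whose diet effect differed between the fractions. Il7r, the interleukin 7 receptor, was at 291 ± 113 CPM under ND and 44.4 ± 15.2 under CD-HFD in CXCR6pos cells, and at 364 ± 94.0 and 276 ± 42.3 in CXCR6neg cells (difference of the diet effects 2.38 ± 0.31, adjusted p = 4.83e-07 by edgeR). Tcf7 fell by 2.05 in CXCR6pos cells and had -0.11 ± 0.15 in CXCR6neg cells (adjusted p of the difference = 1.71e-08 by edgeR). Ly6c2 fell by 2.14 in CXCR6pos cells and had -0.38 ± 0.11 in CXCR6neg cells (adjusted p = 3.18e-15 by edgeR), and Ccr7 fell by 2.79 and had -0.51 ± 0.28 (adjusted p = 0.0231 by edgeR). Ccl5 rose by 1.05 in CXCR6pos cells and had 0.33 ± 0.11 in CXCR6neg cells (adjusted p = 0.00164 by edgeR). Of the 17 naive and stem-like genes tested, the fit of all 6 groups called 0 in CXCR6neg and 10 in CXCR6pos cells (1 higher and 9 lower). The difference itself was called for 6 of them. With the 2 CXCR6neg groups fitted alone, Ccr7 and Dapl1 of the list were called lower. Of the 20 inhibitory receptor and exhaustion genes, 18 were called in CXCR6pos cells (17 higher and 1 lower), and the difference for 2, each with a lower value in CXCR6neg cells.

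In splenic CX3CR1neg cells 2 genes (0.0324%) passed the test, and 0 of the 29 were among them, although 24 had the same sign. The difference between the liver CXCR6neg and the spleen diet effects was called for 0 genes by edgeR, with 319 (5.17%) at an unadjusted p under 0.05, and for 0 by DESeq2, with 409 at an unadjusted p under 0.05. The smallest adjusted p among the 29 was that of Rab37, 0.0616 by edgeR (-1.10 ± 0.23 in liver CXCR6neg and 0.20 ± 0.18 in spleen). S1pr5, at -1.58 ± 0.31 and -0.09 ± 0.26, had an adjusted p of 0.366 for the difference by edgeR. Pdcd1 differed by 1.43 ± 0.37 in the spleen and Ifi27l2a by 1.31 ± 0.27, neither called. None of the 29 diet effects was therefore shown to differ between the liver CXCR6neg cells and the spleen cells.

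**Figure D5:**
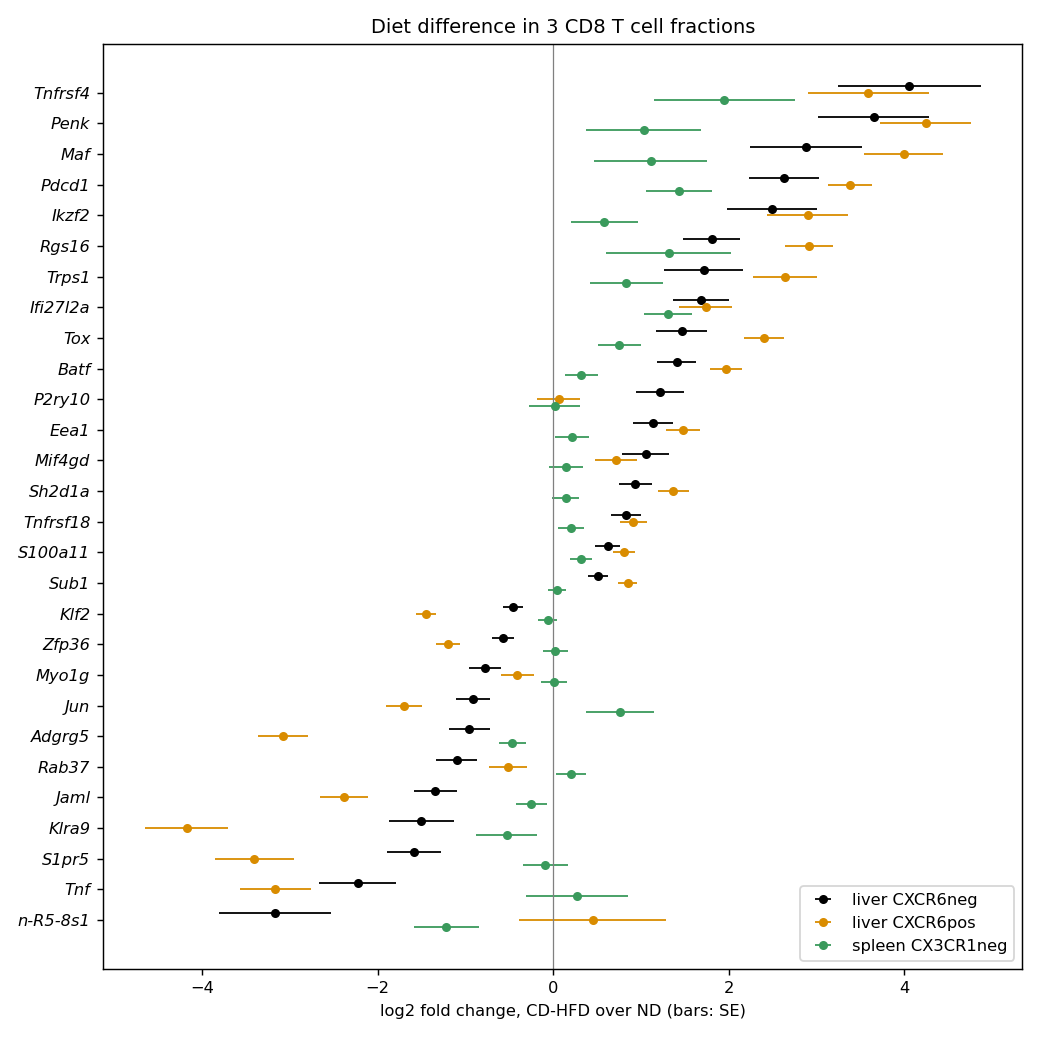
Log2 fold change of CD-HFD over ND (horizontal axis, bars are the SE) for 28 of the 29 genes called in liver CXCR6neg cells, in liver CXCR6neg (black), liver CXCR6pos (orange) and spleen CX3CR1neg cells (green). For each gene shown except n-R5-8s1 the CXCR6pos estimate lies on the same side of 0 as the CXCR6neg estimate, and Klf2, Adgrg5 and Klra9 are the genes whose difference between the liver fractions passed the test.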

How the data were processed

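CD8 T cells were sorted into lysis buffer, cDNA was primed with oligo-dT carrying barcodes and molecular identifiers, and 3′ ends were read on a NextSeq 500, per the labels' protocols. The authors deposited 1 table of raw counts (whole numbers) for 22865 gene symbols. The submitters' processing notes name the build GRCm38.p6 and DESeq2 1.14.1. For the aligner, counter, annotation, strand setting and collapsing of identifiers, the choice was not given in the sources used here. Overlapping genes and near copies may therefore share counts. Intervals and floors cover counting error only.

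Of the 35 samples in 6 groups, 34 were matched to a column by name. 1 column matched no sample and was not used, and CD-HFD CXCR6pos replicate 6 was not analysed here. The 2 identical columns were left out, so 32 libraries were fitted. filterByExpr kept 6174 genes. Counts were scaled by TMM, and edgeR 4.0.16 gave quasi-likelihood tests (R 4.3.3, robust, two-sided, 1 coefficient per group, no block), with Benjamini-Hochberg adjustment over all genes and a threshold of 0.05. The SE is the log2 fold change divided by the square root of F. Levels are TMM-scaled CPM (mean ± SD).

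Named genes passed the test with a mean of 20 CPM or more in their higher group (the 15 largest changes per direction), or were among the 4 smallest p-values of a list or in a fixed set of T cell genes. The text gives part of these, and 1 called gene is not reported here. The 27 gene lists and the marker lists, like the samples compared, were chosen with earlier results of these data known. For each interaction, up to 6 genes per direction were named. Coordinates are those of GENCODE M21 (GRCm38, 1-based), which held 22662 of the 22865 symbols. Promoter windows are RefSeq's on GRCm38.p6. Alternatives were DESeq2 1.42.0, limma 3.58.1 (voom), other scalings, filters and sets of libraries. The scripts were tested on simulated data.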

Additional observations from a re-analysis of the deposited data

Results flagged for a closer look

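In 10 of 146 pairs of gene and diet group examined, 1 library lay far from the others of its group, and chance alone flags about 1 in 20 such groups. ND replicate 4 was low for Penk, at 2.47 CPM where the others held 13.3 to 14.2, low for Cd5, a T cell surface protein, at 166 CPM where the others held 230.2 to 239, and high for Plin2, at 14.8 CPM where the others held 0. ND replicate 3 was high for Batf, at 113 CPM against 64.3 to 67.3. ND replicate 2 was low for Klra9, at 20.01 CPM against 67.8 to 74.4, and high for Ctla4, at 66.7 CPM against 32.1 to 36.1. Among CD-HFD libraries, replicate 1 was high for Cd8a, at 1050.4 CPM against 836 to 863. Replicate 5, the shallowest, was high for P2rx7 (36.2 CPM against 0 to 8.87) and for the adhesion molecule Icam1 (627 CPM against 396 to 476). Replicate 6 was high for Apoe, at 26.6 CPM against 4.41 to 12.7.

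The effect of diet differed between CXCR6neg and CXCR6pos liver cells for 22 of the genes examined, by the interaction test of edgeR (the CXCR6neg minus the CXCR6pos effect, log2). For Klra9 (2.68), Adgrg5 (2.12), Klf2 (0.99), Ly6c2 (1.76), Il7r (2.38), Fos (1.08), Tcf7 (1.94) and Ccr7 (2.28) the CXCR6pos cells held the more negative estimate. Only Klra9, Adgrg5 and Klf2 of these were called lower in CXCR6neg cells. Cd3e of the T cell receptor complex (-0.76) and the chemokine gene Ccl5 (-0.73) rose in CXCR6pos cells, with estimates of -0.03 ± 0.10 and 0.33 ± 0.11 in CXCR6neg cells that did not pass the test. Apoe had -2.51, from 51.7 ± 24.5 to 12.6 ± 7.51 CPM in CXCR6neg and from 55.9 ± 24.5 to 73.6 ± 54.7 CPM in CXCR6pos cells.

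The largest positive differences were fitted for Ppfia4 (5.44), Ncf1 (5.35), Tdrp (4.71), Nt5e (4.55), Ramp1 (4.12) and Pcsk4 (3.26). Ppfia4 and Ncf1 had 0 counts in CD-HFD CXCR6pos cells, Tdrp, Nt5e and Ramp1 had 1 and Pcsk4 had 3, so these fitted values depend on the prior count and are no bounds. Nt5e, the ecto-enzyme CD73 that makes adenosine, was at 29.3 ± 18.5 CPM under ND and 30.9 ± 15.3 CPM under CD-HFD in CXCR6neg cells. The most negative differences were those of Chn2 (-2.65), Apoe (-2.51, above), Podnl1 (-2.46), Tfip11 (-1.74), Susd3 (-1.66) and Parg (-1.63). Podnl1 was at 16.2 ± 11.8 CPM under ND and 79.4 ± 16.1 CPM under CD-HFD in CXCR6pos cells, and at 15.5 ± 2.35 and 14.1 ± 8.32 CPM in CXCR6neg cells.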

How the results depend on the processing

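The counts of 18 higher and 11 lower genes were 18 and 11 with DESeq2 and 15 and 8 with limma-voom. With no filter on low counts, 25 genes were higher and 17 lower. With the 2 groups fitted alone they were 28 and 19. With the shared column kept in the liver 37 were higher and 16 lower, with 23 of the 29 calls kept, and with it kept in both groups 39 were higher. Without CD-HFD replicate 5 and ND replicate 2, an alternative chosen after seeing the data, 24 were higher and 25 lower. Leaving out 1 library gave 7 to 22 higher and 1 to 23 lower genes, and the ends were set by ND replicates 4 and 2. For the difference from the spleen, 4 genes were lower with no filter, 1 with RLE size factors and 2 with the shared column kept in the spleen, and leaving out 1 library gave 0 to 5. For the difference from CXCR6pos cells, leaving out 1 library gave 49 to 77 higher and 17 to 35 lower genes. The planned filter of 10 CPM in at least 4 libraries kept more genes than the main one, so 40 CPM was added after seeing the data (17 higher and 11 lower).

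Whether replicate numbers pair the libraries was not settled. Between the diets, which cannot share a mouse, deviations of same-numbered CXCR6neg libraries correlated at -0.01 to 0.06 over 4 pairs. There, 2 of 4 matched their own number best. Between CXCR6neg and CXCR6pos libraries the range was -0.01 to 0.03 over 5 pairs under CD-HFD (3 matched their own number best). Under ND it was 0.02 to 0.08 over 4 pairs (1 matched its own number best). The tests between fractions used no pairing. With the replicate block, 22 genes were higher and 16 lower, against 28 and 19 in the same fit without the block, and 18 of the 29 were among them.

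Uncalled genes near 0 changed sign. Gzmb had log2 fold changes of 0.0022 with DESeq2, 0.14 with the replicate block, 0.18 with limma-voom, 0.22 and 0.23 with the shared column kept in the liver and in both groups, and -0.33 to 0.25 without 1 library, positive without ND replicate 4 (0.15) or 5 (0.25). Cd3e had 0.035 and 0.040 with that column kept in the liver and in both. Leaving out 1 library gave -0.23 to 0.021 for Tcf7, -0.028 to 0.21 for Fasl and -0.76 to 0.24 for Foxo1, each with a changed sign without ND replicate 3. The cause was not tested. Depths of 84808 to 419019 counts in the CXCR6neg libraries limit low genes: 3 counts were 36.2 CPM in the shallowest of them.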

Other observations

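Several members of the gene lists did not overlap between the diets and did not pass the test in the fit of all 6 groups. Of those given here, Dapl1, Cd7, Tgif1 and Hspa1a were called by edgeR with the 2 groups fitted alone. Dapl1, Cd7 and Hspa1a were also called with replicate number added, and Cd7 with no filter on low counts. Klf6 was not called in these fits. Dapl1, of the naive and stem-like list, was at 313, 280.0, 317 and 436 CPM in ND replicates 2 to 5 and 109 to 207 CPM (median 171) under CD-HFD (-0.97 ± 0.48, adjusted p = 0.595 by edgeR). Cd7, a surface receptor of T and NK cells, was at 454, 465, 739 and 581 CPM and 285 to 419.7 CPM (median 345) (adjusted p = 0.0944 by edgeR). Tgif1, a repressor in the TGF-beta pathway, was at 86.7, 108, 54.4 and 70.8 CPM and 109 to 157 CPM (median 132) (adjusted p = 0.0852 by edgeR). Hspa1a, the stress-induced chaperone HSP70, was at 280.1, 212, 181 and 152 CPM and 20.7 to 120.5 CPM (median 75.8) (adjusted p = 0.325 by edgeR), and Klf6, a zinc-finger factor of the immediate-early list, at 927, 971, 1090.5 and 921 CPM and 676 to 833 CPM (median 713) (adjusted p = 0.11 by edgeR).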
